A study of Mus musculus with 10 samples.

Results

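The core circadian clock is described here through 10 genes (Per1, Per2, Per3, Cry1, Cry2, Arntl, Clock, Npas2, Nr1d1 and Nr1d2), chosen by name as the parts of the transcriptional feedback loop, out of 56691 genes in the table. All 10 had a row and all 10 passed the filter on low values that left 14928 genes for testing. RNA had been sequenced from tissue labelled as medial habenula, an epithalamic nucleus with cholinergic neurons and many nicotinic receptors, of 6 mice in nicotine withdrawal and 4 control mice. The withdrawal mice were wild-type and had received nicotine ditartrate at 4 mg/kg intraperitoneally, 2 injections a day for 14 days, with saline in its place from day 15. The control mice were wild-type and had received intraperitoneal saline over 17 days, and tissue of both groups was taken on day 17. Strain, sex, age and the hour at which tissue was taken are not given in the sources used here. The source label names cholinergic neurons isolated by FACS, while the design text names brain tissue. Nothing pairs the mice, and p-values measure the spread between these libraries.

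In the mammalian clock, the transcription factor BMAL1 (gene Arntl) pairs with CLOCK, or in some tissues with NPAS2, and switches on the Per and Cry genes through E-box sequences. PER and CRY proteins then enter the nucleus and repress that pair, which closes the main loop over about a day. In a further loop, the nuclear receptors REV-ERB alpha and beta (Nr1d1 and Nr1d2) repress Arntl, so that in most tissues Arntl transcripts peak when Per transcripts are low. Per1 and Per2 are also known to respond to outside signals, among them glucocorticoid hormones and cyclic AMP, in many tissues.

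The stretches before the start sites of 4 members are shown because these genes differed between the groups in the 8 libraries described below and because they carry known clock sequences. They are RefSeq promoter windows of build GRCm38.p6, 250 bases up to the start site on the gene's own strand, with motif matches in capitals. Per1 lies at chr11:69098699-69098948 on the plus strand, Per3 at chr4:151044666-151044915 on the minus strand, Cry1 at chr10:85185055-85185304 on the minus strand and Nr1d1 at chr11:98775378-98775627 on the minus strand. The counts were made on another build, mm39, so these positions are not those of the count table.
Per1: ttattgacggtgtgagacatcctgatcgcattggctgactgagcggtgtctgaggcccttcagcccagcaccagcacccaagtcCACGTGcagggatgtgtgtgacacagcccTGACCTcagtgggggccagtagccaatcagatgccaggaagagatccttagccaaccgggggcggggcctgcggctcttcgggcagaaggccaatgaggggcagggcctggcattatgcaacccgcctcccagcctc
Per3: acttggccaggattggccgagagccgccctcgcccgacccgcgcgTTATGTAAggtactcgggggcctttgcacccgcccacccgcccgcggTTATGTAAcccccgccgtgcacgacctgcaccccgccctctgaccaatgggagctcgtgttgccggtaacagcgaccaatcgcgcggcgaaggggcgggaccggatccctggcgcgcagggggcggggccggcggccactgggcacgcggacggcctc
Cry1: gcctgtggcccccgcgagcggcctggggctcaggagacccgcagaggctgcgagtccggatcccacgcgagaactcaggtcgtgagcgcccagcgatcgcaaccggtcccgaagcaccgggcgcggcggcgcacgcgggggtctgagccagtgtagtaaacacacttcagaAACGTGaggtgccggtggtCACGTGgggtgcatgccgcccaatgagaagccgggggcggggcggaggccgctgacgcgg
Nr1d1: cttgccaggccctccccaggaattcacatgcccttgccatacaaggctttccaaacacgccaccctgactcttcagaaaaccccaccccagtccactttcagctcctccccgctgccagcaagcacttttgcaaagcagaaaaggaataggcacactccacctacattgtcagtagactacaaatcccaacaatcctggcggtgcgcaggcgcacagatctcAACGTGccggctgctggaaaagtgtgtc

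In Per1 the capitals mark an E-box, CACGTG, at -166 to -161 from the start site, and TGACCT at -137 to -132, the reverse complement of AGGTCA, which is the half-site read by REV-ERB and ROR receptors. Per3 held 2 copies of TTATGTAA, the D-box read by the factors DBP, TEF, HLF and NFIL3, at -205 to -198 and at -158 to -151. Cry1 held CACGTG at -60 to -55 and the related E-prime box CACGTT, read on the other strand as AACGTG, at -79 to -74. Nr1d1 held the E-prime box at -28 to -23. Each motif was searched on both strands, and none of these matches overlapped another motif. Over 32851 windows of the same length, 6.02% held CACGTG, 3.85% CACGTT, 0.819% TTATGTAA and 14.0% AGGTCA. The cyclic AMP response element TGACGTCA was in 1.55% of all windows and ACANNNTGT, the core of the glucocorticoid response element, in 5.84%. Neither was in any of the 13 windows found for 9 of the 10 members. Only 250 bases before each start site were searched, so sites elsewhere would not be seen. No window was found for Per2. Members that did not differ held matches too: Cry2 an E-prime box, and Clock and Nr1d2 the half-site AGGTCA on either strand. Arntl, which differed in the 8 libraries, held no match, nor did the other Per1 window. A link between motifs and changes was not tested.

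Total counts ran from 15023448 to 22026333 per library, and the members had between 127 counts (Npas2) and 4337 counts (Nr1d2) in a library. Withdrawal 2 and control 2 stood apart from the other 8 libraries in tissue markers. All 11 medial habenula markers were tested, and their summed level was 235 CPM (read counts scaled to library size, with TMM factors) in withdrawal 2 and 24.95 CPM in control 2. In the others it was 1486 to 1727 CPM in withdrawal and 1196 to 1557 CPM in controls. Calb2 made up most of the sum in withdrawal 2, at 221 CPM, and the next highest marker there was Slc5a7, at 3.96 CPM. Chat, which makes acetylcholine, was at 0.2004 CPM in withdrawal 2 and 0.165 CPM in control 2. Myelin transcripts, which a sort for neurons would deplete, summed to at least 5863 CPM in every library. The group comparison of each member is therefore given for all 10 libraries and for the 8 without withdrawal 2 and control 2 (5 withdrawal, 3 control). That choice was made with earlier results of these data known.

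The period genes were lower in withdrawal, Per2 by the most. Per2, a repressor of the BMAL1 pair, had a lowest, median and highest level of 25.1, 28.5 and 45.7 CPM in withdrawal. The control levels were 59.6, 107, 72.8 and 62.7 CPM in controls 1 to 4. The groups did not overlap, and the highest value of each was in the library low in habenula markers. Per2 averaged 31.1 ± 7.45 CPM in withdrawal and 75.6 ± 21.8 CPM in controls (SD, n = 6 and 4), a log2 change of -1.28 (SE 0.203, edgeR's adjusted p = 0.0458), or 58.8% lower. Without those libraries the means were 28.2 ± 2.44 CPM in withdrawal and 65.03 ± 6.89 CPM in controls, with a log2 change of -1.21 (SE 0.0890, edgeR's adjusted p = 0.000331). The call over 10 libraries lay near the threshold: it held without withdrawal 2 (edgeR's adjusted p = 0.00682) and missed the threshold when any other single library was left out (0.0501 to 0.168), with log2 changes between -1.42 and -1.07 throughout. DESeq2 called Per2 over 10 libraries. Fewer cells of a type and less RNA per cell cannot be told apart in tissue RNA, here and for the other members.

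Per1, the period gene best known for quick induction by outside signals, fell as well. It ranged from 53.8 to 66.1 CPM in withdrawal with a median of 58.4 CPM, against 78.9, 107, 80.0 and 92.04 CPM in controls 1 to 4. No withdrawal library reached any control. The means were 58.7 ± 4.29 CPM in withdrawal and 89.5 ± 13.2 CPM in controls, and the log2 change was -0.61 (SE 0.0966, edgeR's adjusted p = 0.0458). Leaving out withdrawal 2 and control 2 gave means of 59.0 ± 4.74 CPM in withdrawal and 83.7 ± 7.28 CPM in controls and a log2 change of -0.51 (SE 0.0793, edgeR's adjusted p = 0.00559). The call over 10 libraries held without withdrawal 2 or without control 2 (edgeR's adjusted p = 0.0191 and 0.0397) and missed the threshold without any other single library (0.0819 to 0.149). In control 2 Per1 and Per2 had the same number of counts, 1950.

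Per3, the third period gene and the least needed for rhythm in mice, had 46.8, 50.2 and 63.4 CPM as its lowest, median and highest level in withdrawal. It had 74.4, 68.9, 67.5 and 68.6 CPM in controls 1 to 4. The groups did not overlap in CPM, and the highest withdrawal value was in withdrawal 2. In FPKM they did, with 5.92 in control 2 and 6.49 in withdrawal 2. The TMM factor of control 2 was 0.832, the lowest of the 10 libraries. Over all 10 libraries Per3 missed the threshold (log2 change -0.44, SE 0.0884, edgeR's adjusted p = 0.136), although DESeq2 gave an adjusted p of 0.00179. With both libraries left out it fell to 49.3 ± 2.19 CPM in withdrawal, against 70.2 ± 3.73 CPM in controls (log2 change -0.52, SE 0.0581, edgeR's adjusted p = 0.00151).

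Of the cryptochromes, partners of the PER proteins, Cry1 passed the threshold in the 8 libraries and Cry2 in neither setting. Cry1 had 17.1, 22.2 and 25.01 CPM as its lowest, median and highest level in withdrawal, and 31.2, 21.3, 28.8 and 30.8 CPM in controls 1 to 4. Control 2 lay within the withdrawal range and the other 3 controls above it. The log2 change was -0.37 (SE 0.138, edgeR's adjusted p = 0.274) in 10 libraries and -0.43 (SE 0.0876, edgeR's adjusted p = 0.0141) in 8, where the groups did not overlap. Cry2 had 101 to 113 CPM in withdrawal and 102, 160.05, 109 and 97.4 CPM in controls 1 to 4. Its log2 change was -0.12 (SE 0.1303, edgeR's adjusted p = 0.670) in 10 libraries and 0.06 (SE 0.0585, edgeR's adjusted p = 0.560) in 8.

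**Figure D1:**
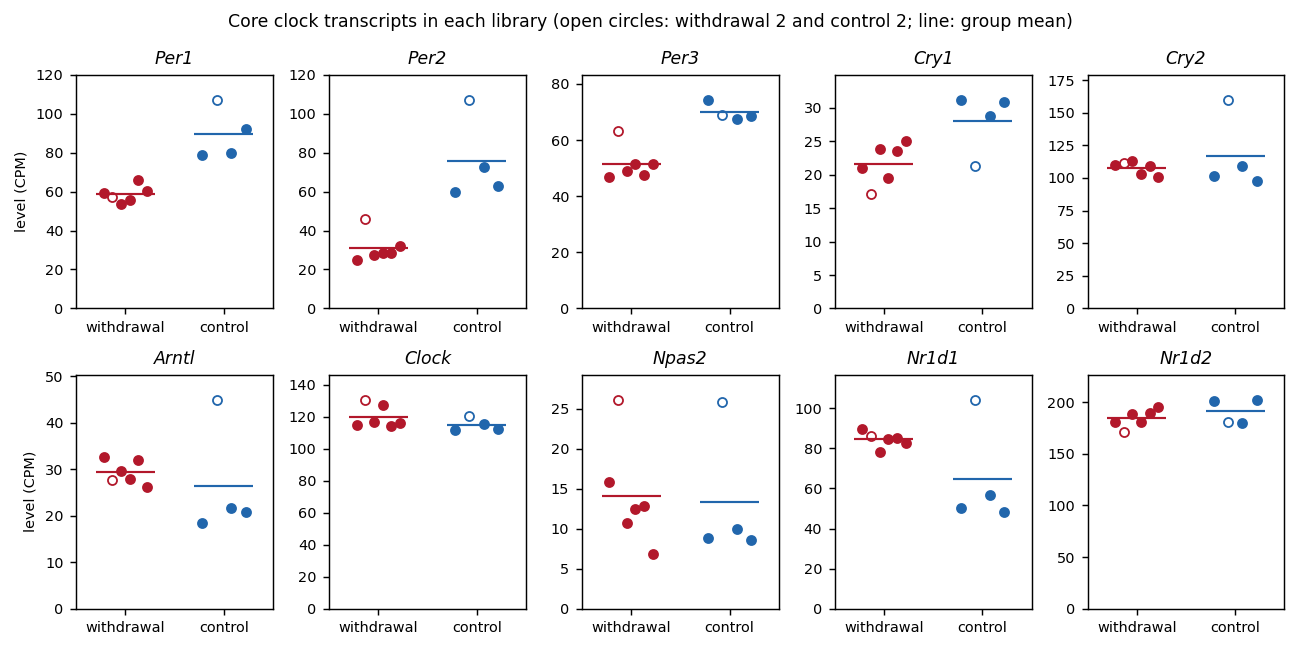
Levels in CPM (y axes, from 0) of the 10 core clock transcripts in 6 withdrawal libraries (red, left) and 4 control libraries (blue, right). Points are libraries, open circles withdrawal 2 and control 2, and lines group means. Per1, Per2 and Per3 show no overlap of the groups, while Arntl and Nr1d1 separate only when the open circle of the controls is set aside.

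Of the activators, Arntl differed in the 8 libraries and Clock and Npas2 passed in neither setting. Arntl had 26.3, 28.8 and 32.6 CPM as its lowest, median and highest level in withdrawal, and 18.4, 44.96, 21.7 and 20.7 CPM in controls 1 to 4. Every withdrawal library lay above controls 1, 3 and 4 and below control 2. Over 10 libraries the log2 change was 0.15 (SE 0.231, edgeR's adjusted p = 0.768). In 8 it rose to 29.7 ± 2.67 CPM in withdrawal, against 20.3 ± 1.67 CPM in controls (log2 change 0.54, SE 0.0940, edgeR's adjusted p = 0.00845). Clock ran from 114 to 131 CPM in withdrawal and from 112 to 120.5 CPM in controls, with log2 changes of 0.06 (SE 0.0608) and 0.05 (SE 0.0524) in 10 and 8 libraries. Npas2, a relative of Clock known from forebrain, was highest in the libraries low in habenula markers, at 26.1 CPM in withdrawal 2 and 25.8 CPM in control 2. Elsewhere it lay between 6.82 and 15.9 CPM in withdrawal and between 8.57 and 10.02 CPM in controls, and its log2 change was 0.08 (SE 0.416) in 10 libraries and 0.35 (SE 0.2305) in 8.

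The REV-ERB genes also split. Nr1d1, which encodes REV-ERB alpha, had 78.2, 84.7 and 89.6 CPM as its lowest, median and highest level in withdrawal. Controls 1, 3 and 4 had 50.3, 56.5 and 48.4 CPM, below all withdrawal libraries, and control 2 had 104 CPM, above all of them. In FPKM control 2, at 27.95, lay within the withdrawal range of 25.99 to 29.33. The log2 change was 0.38 (SE 0.199, edgeR's adjusted p = 0.370) over 10 libraries. With control 2 and withdrawal 2 left out, Nr1d1 rose to 84.02 ± 4.11 CPM in withdrawal, against 51.7 ± 4.21 CPM in controls (log2 change 0.69, SE 0.0698, edgeR's adjusted p = 0.000900). The Nr1d1 gene overlaps Thra on the opposite strand, and since the strand setting of the counting is not given, reads from the overlap cannot be told apart. Thra, a thyroid hormone receptor named for this reason, had log2 changes of -0.24 (SE 0.223) in 10 libraries and 0.12 (SE 0.0745) in 8 and passed in neither. Nr1d2, the beta form, ranged from 171 to 195 CPM in withdrawal and from 179.7 to 202 CPM in controls, with log2 changes of -0.05 (SE 0.0638, edgeR's adjusted p = 0.704) and -0.07 (SE 0.0546, edgeR's adjusted p = 0.450).

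**Figure D2:**
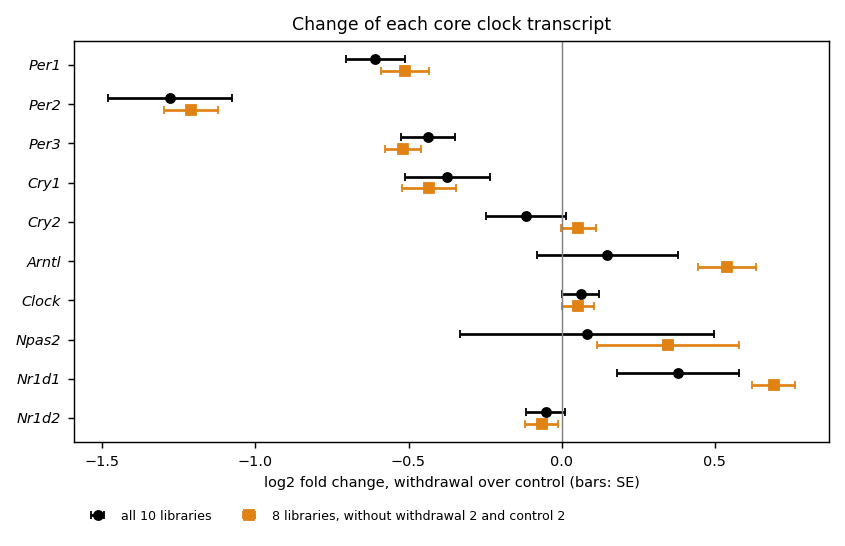
Log2 fold change of withdrawal over control (x axis, bars are SE) for each member, from all 10 libraries (black circles) and from 8 libraries (orange squares). Per2 lies at -1.28 and -1.21, while Arntl lies at 0.15 and 0.54 and Nr1d1 at 0.38 and 0.69.

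Over all 10 libraries, 2 of the 10 members fell and 0 rose. Among all 14928 genes 0.208% were called (0.174% lower and 0.0335% higher), and DESeq2 called 2.55% of all genes and 3 members (Per1, Per2 and Per3). Without withdrawal 2 and control 2, 4 members fell (Per1, Per2, Per3 and Cry1) and 2 rose (Arntl and Nr1d1). There 14.0% of all genes were called, 7.63% lower and 6.36% higher. In CPM the groups did not overlap for 3 members in 10 libraries, against 3.31% of all genes. In 8 libraries they did not overlap for 6 members, against 23.3%. The median log2 change of the members was -0.08 and -0.01 in the 10 and 8 libraries, and over all genes tested it was 0.0034 and 0.0077.

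The drop of Per2 was compared with that of other members within each library, so that library scaling cancels. The log2 ratio of Per2 over Arntl was 0.06 ± 0.389 in withdrawal and 1.57 ± 0.2198 in controls (SD, n = 6 and 4). The highest withdrawal value was 0.72, in withdrawal 2, and the lowest control value 1.25, in control 2, so the groups did not overlap. The difference was -1.51 (exact 2-sided permutation p = 0.00476, the smallest that 210 regroupings can give, and 0.00635 adjusted over 4 ratios). Per2 over Nr1d1 was -1.46 ± 0.307 in withdrawal and 0.26 ± 0.154 in controls, a difference of -1.72 with the same exact permutation p and adjusted p. Per2 over Per3 was -0.75 ± 0.159 in withdrawal and 0.07 ± 0.414 in controls, a difference of -0.82, again at the smallest p. Per2 over Per1 was -0.94 ± 0.327 in withdrawal and -0.27 ± 0.251 in controls, a difference of -0.66 (exact permutation p = 0.0286, adjusted p = 0.0286). For that ratio withdrawal 2, at -0.33, lay above controls 1 and 4, at -0.41 and -0.55, and without control 2 the difference was -0.57 (exact permutation, adjusted p = 0.0595). In the 8 libraries the differences were -1.74, -1.90, -0.69 and -0.70 for Arntl, Nr1d1, Per3 and Per1, each with an exact permutation p of 0.0179, the smallest that 56 regroupings can give. Per2 was thus lower in withdrawal relative to Per3, Nr1d1 and Arntl without overlap of the groups, and relative to Per1 with the overlap given. All 4 ratios share Per2, the member with the largest drop. Their p-values are therefore independent neither of that drop nor of each other.

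**Figure D3:**
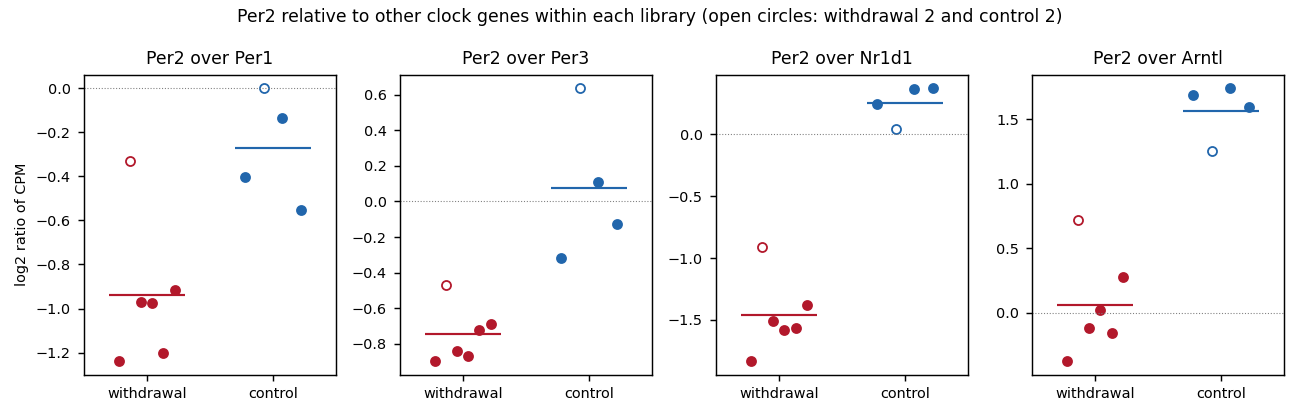
Log2 ratio of CPM of Per2 over Per1, Per3, Nr1d1 and Arntl (y axes) in each withdrawal library (red, left) and control library (blue, right), with group means as lines and withdrawal 2 and control 2 as open circles. Ratios to Per3, Nr1d1 and Arntl do not overlap between the groups, and the ratio to Per1 overlaps through withdrawal 2, at -0.33.

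Levels between members were compared on FPKM, which divides by gene length. Over the 10 libraries Nr1d2 was highest at 34.4 ± 3.28 FPKM (SD), followed by Nr1d1 at 24.5 ± 5.32, Cry2 at 17.4 ± 1.44, Per1 at 12.4 ± 2.56 and Clock at 8.53 ± 0.619 FPKM. Per2 (8.10 ± 3.83), Cry1 (7.22 ± 1.60), Per3 (6.07 ± 1.03), Arntl (3.68 ± 0.775) and Npas2 (2.80 ± 1.24) came below, all in FPKM. These means pool the groups, and the order was not the same in each. In withdrawal the order was Nr1d2, Nr1d1, Cry2, Per1, Clock, Cry1, Per3, Per2, Arntl and Npas2. The mean ± SD ranges of neighbours in it were apart down to Cry1 and overlapped from Cry1 to Npas2. In controls the order was Nr1d2, Nr1d1, Cry2, Per1, Per2, Cry1, Clock, Per3, Arntl and Npas2, and neighbours overlapped except between Nr1d2 and Nr1d1 and between Per3 and Arntl. Per2 averaged 5.38 ± 1.21 FPKM in withdrawal and 12.2 ± 2.13 FPKM in controls, while Clock averaged 8.85 ± 0.455 FPKM in withdrawal and 8.045 ± 0.532 FPKM in controls. Per2 was thus below Clock in withdrawal and above it in controls, in both cases beyond the SDs.

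The members also varied by different amounts within a group. In the 8 libraries the coefficient of variation was lowest for Nr1d2 in withdrawal, at 3.34%, and for Clock in controls, at 1.76%. Npas2 had the highest in withdrawal, at 28.3%, and Per2 in controls, at 10.6%. Adding control 2 raised the control value of Arntl to 46.9%, against 8.24% without it, and that of Nr1d1 to 40.8%, against 8.14%.

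In the output and auxiliary branch of the clock, calls came in the 8 libraries only. Of 12 listed genes 11 were tested and 0 passed in 10 libraries (0.208% of all genes did). The median log2 change was -0.15 in 10 libraries and 0.06 in 8. Of the 11, 1 fell and 1 rose in the 8 libraries, where 14.0% of all genes were called, so the count was near that over all genes. Tef, a D-box factor, had 229 to 266 CPM in withdrawal and 277, 419, 278 and 275 CPM in controls 1 to 4, with a log2 change of -0.36 (SE 0.124, edgeR's adjusted p = 0.265) in 10 libraries. Without withdrawal 2 and control 2 it fell by 0.22 on the log2 scale (SE 0.0456, edgeR's adjusted p = 0.0157). Dbp, a D-box factor driven by BMAL1 and CLOCK and named after its values were seen, had log2 changes of -0.07 and 0.06 (edgeR's adjusted p = 0.817 and 0.749). Rorb, a nuclear receptor that activates through the same sites as REV-ERB, had a log2 change of 0.64 (edgeR's adjusted p = 0.303) in 10 libraries and rose by 0.79 on the log2 scale in 8 (SE 0.217, edgeR's adjusted p = 0.0400). It is also on the list of thalamic markers, of which 5 of 8 rose in the 8 libraries, against 6.36% of all genes.

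Among 15 kinases, ubiquitin ligases and partners of the clock proteins, 0 passed in 10 libraries and 1 in 8, also no more than the shares over all genes, with medians of -0.04 and -0.02. That gene was Usp2, a deubiquitinase known to act on clock proteins and a rhythmic gene itself. It had 41.2, 51.8 and 76.5 CPM as its lowest, median and highest level in withdrawal, and 84.4, 92.8, 96.6 and 95.5 CPM in controls 1 to 4. The groups did not overlap in 10 libraries, as for 3.31% of all genes. Its log2 change was -0.75 (SE 0.152, edgeR's adjusted p = 0.136) in 10 libraries, where DESeq2 gave an adjusted p of 0.00191. In 8 libraries it was -0.88 (SE 0.113, edgeR's adjusted p = 0.00269). Fbxw11, a ligase subunit that acts on PER proteins, had log2 changes of -0.32 and -0.19 and passed in neither. The casein kinase genes Csnk1d and Csnk1e, which phosphorylate PER, were also named after their values were seen. They had log2 changes of -0.10 and 0.06 in 10 libraries. In 8 their log2 changes were -0.015 and 0.147 (edgeR's adjusted p = 0.866 and 0.0986). There the groups did not overlap for Csnk1e, as for 23.3% of all genes.

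Most listed transcripts known to respond to glucocorticoids were lower in withdrawal, like the period genes. Of 16 listed, 9 fell in 10 libraries, against 0.174% of all genes. The list was drawn up with earlier results of these data known, so its counts are not independent of them. The median log2 change of the list was -1.02. In 8 libraries 15 fell, against 7.63% of all genes, and the list median was -1.13. Their summed level was 483 to 806 CPM in withdrawal and 1117 to 1364 CPM in controls. Mt2, a metallothionein, averaged 23.6 ± 3.17 CPM in withdrawal and 51.1 ± 1.88 CPM in controls, and Plin4, a lipid droplet protein, 8.49 ± 2.30 CPM in withdrawal and 64.0 ± 22.04 CPM in controls. Hif3a, of the hypoxia-inducible factors, averaged 5.63 ± 1.73 CPM in withdrawal and 24.5 ± 3.09 CPM in controls. All 3 fell, with log2 changes of -1.11, -2.91 and -2.12 (edgeR's adjusted p = 0.00461, 0.00461 and 0.00755). In 8 libraries their log2 changes were -1.18, -3.165 and -2.03 (edgeR's adjusted p = 0.000441, 0.000303 and 0.00151). Immediate early genes, which follow neuronal activity and cyclic AMP, gave 0 calls of 16 tested in 10 libraries, against 0.208% of all genes. In 8 libraries 5 of 16 were lower, against 7.63% of all genes. The medians were -1.22 and -0.61. Nr4a3, Fosl2 and Nr4a1 had log2 changes of -1.13, -1.32 and -1.46 in 10 libraries (edgeR's adjusted p = 0.253, 0.264 and 0.265). In 8 libraries their log2 changes were -0.64, -1.52 and -0.34 (edgeR's adjusted p = 0.127, 0.00387 and 0.162), and Nr4a1 in 10 libraries rested on control 2, at 104 CPM. The 5 that fell in 8 libraries were Fosl2, Jun, Egr3, Egr4 and Homer1, of which all but Fosl2 were named after their values were seen. Dusp1 is on both lists and passed in neither setting. The part of either group of genes in the change of the period genes was not tested.

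**Figure D4:**
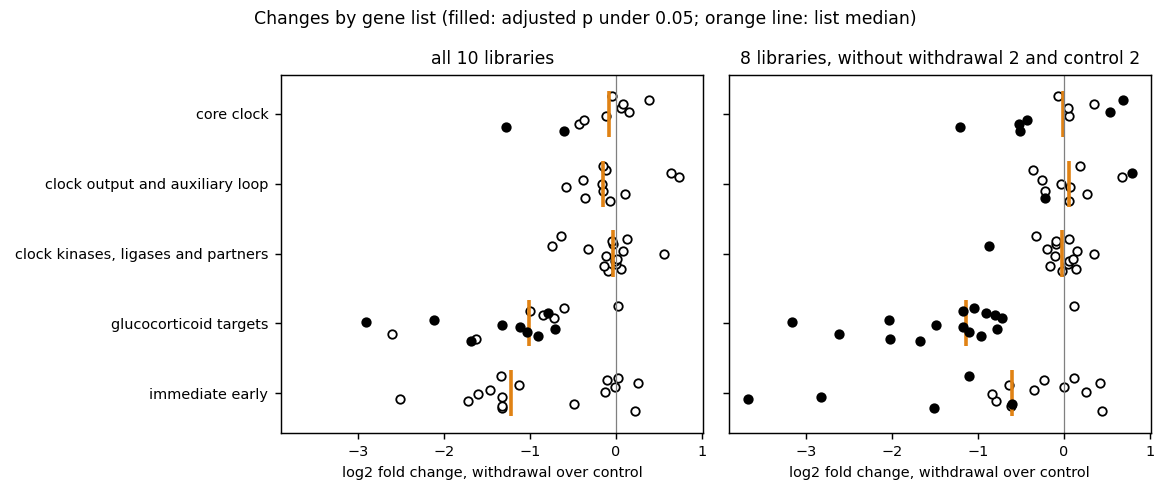
Log2 fold change of withdrawal over control (x axes) of the core clock, its output and regulators, glucocorticoid targets and immediate early genes (rows), from 10 libraries (left) and 8 libraries (right). Each point is a gene, filled where the adjusted p was under 0.05, and the orange line is the list median. Glucocorticoid targets lie to the left with medians of -1.02 and -1.13, while core clock members lie on both sides of 0.

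Some lists of cell type markers differed between the groups in the same 8 libraries. There 7.63% of all genes were called lower and 6.36% higher. Hippocampal and cortical markers summed to 368 to 458 CPM in withdrawal and 546 to 1057 CPM in controls, with 5 of 8 lower. Myelin markers summed to 5863 to 10010 CPM in withdrawal and 11070 to 12290 CPM in controls, with 5 of 6 lower. Thalamic markers summed to 800.2 to 1376 CPM in withdrawal and 551 to 777 CPM in controls. Astrocyte markers had 3 of 7 lower. Medial habenula markers had 1 of 11 higher, near the share over all genes. Endothelial, microglial, choroid plexus, GABAergic and blood markers gave 0 calls. In withdrawal 2 and control 2 the hippocampal and cortical sum was 676 and 2732 CPM, the GABAergic sum 1136 and 869 CPM and the thalamic sum 537 and 232 CPM. Choroid plexus sums in the 8 libraries spanned 109 to 9704 CPM in withdrawal and 7342 to 10230 CPM in controls. All 5 markers had a log2 change below 0 there, with a median of -1.15. The sum was 13210 CPM in withdrawal 2 and 82.6 CPM in control 2. No marker was at 0 in any library apart from Dlx1 and Dlx2 in withdrawal 3 and Vip in withdrawal 1. Their part in the changes of the clock genes was not tested.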

How the data were processed

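RNA-seq counts of 10 libraries labelled as medial habenula, of which withdrawal 2 and control 2 were low in its markers, were analysed, 6 from withdrawal and 4 from control mice. The deposited count columns held raw read counts per Ensembl gene, made by the authors, and the deposited FPKM columns held fragments scaled to gene length and library size, per the file headers. The submitters' processing notes name cutadapt 1.9.1, HISAT2 2.2.1, HTSeq 0.6.1 and build mm39; strand setting and annotation release are not given in the sources used here, so antisense and overlapping genes could not be told apart. Symbols came from GENCODE M21 and named 52073 of 56691 identifiers.

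A mean FPKM of 1 or more was required, and the genes left were tested with edgeR 4.0.16 (TMM, quasi-likelihood, 2-sided, R 4.3.3), with Benjamini-Hochberg adjustment over all genes and a threshold of 0.05. The SE of an edgeR log2 change was derived as its absolute size divided by the square root of the quasi-likelihood F statistic. The script was tested on simulated data. Ratios used log2 CPM with a prior count of 2 and an exact permutation test. Alternatives were RLE size factors, DESeq2 1.42.0, other filters, limma 3.58.1 on log2(FPKM + 1) or log2(FPKM + 0.1), a replicate block and left-out libraries. Counting precision is a lower bound on error, since reads carry no molecular identifiers.

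Members and lists were chosen with earlier results of these data known. Named genes were all members, listed clock genes past the threshold or with the 2 smallest p per list, the 3 smallest of the other lists and the 5 nearest profiles to Per2 and Per1. Dbp, Csnk1d and Csnk1e were named after their values were seen.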

Additional observations from a re-analysis of the deposited data

Results flagged for a closer look

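In 5 of 20 groups of values (10 members in each group of mice), 1 library lay far from the others of its group, a gap that chance gives in about 1 of 20. Withdrawal 2 was far above the other withdrawal libraries for Per2, at 45.7 CPM, and for Per3, at 63.4 CPM. Control 2 was far above the other controls for Arntl, at 44.96 CPM, for Npas2, at 25.8 CPM, and for Nr1d1, at 104 CPM. These are the libraries low in habenula markers. With both left out, Per2 and Per3 were called lower, Arntl and Nr1d1 were called higher in withdrawal, and Npas2 was not called.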

How the results depend on the processing

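The count of genes changed was 31 in the main setting, 380 with DESeq2, 12 and 10 with limma on log2(FPKM + 1) and log2(FPKM + 0.1), 0 with a replicate block (1914 genes had an unadjusted p under 0.05) and 2088 without withdrawal 2 and control 2. Leaving out 1 library gave 4 to 893, the highest without withdrawal 2. Of the members, 2 were called in the main setting, 1 with no filter, 0 with filterByExpr, 1 with either limma scale, 0 with the replicate block, 6 without both libraries, and 0 to 3 with 1 library left out. Per1 kept its direction and missed the threshold with no filter (log2 change -0.61), filterByExpr (-0.62), limma (-0.48 and -0.52 with pseudocounts 1 and 0.1) and the replicate block (-0.65). Per2 missed it with filterByExpr (-1.29, adjusted p = 0.0521) and the replicate block (-1.26, adjusted p = 0.0728). Per3 passed with DESeq2 (-0.44) and without both libraries (-0.52), and Cry1 (-0.43), Arntl (0.54) and Nr1d1 (0.69) without both libraries. Cry2 turned to 0.055 without both libraries and to 0.063 without control 2, and Nr1d2 to 0.025 and 0.026 with the limma pseudocounts 1 and 0.1; none of these passed the threshold, and the cause was not tested.

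With 1 library left out, the log2 change lay between -0.66 and -0.52 for Per1, -1.42 and -1.07 for Per2, -0.50 and -0.40 for Per3, -0.49 and -0.31 for Cry1, -0.20 and 0.063 for Cry2, 0.01 and 0.52 for Arntl, 0.04 and 0.08 for Clock, -0.18 and 0.62 for Npas2, 0.26 and 0.70 for Nr1d1, and -0.09 and -0.02 for Nr1d2. Per2 was called in 1 of these 10 settings, without withdrawal 2, and its adjusted p ran from 0.00682 to 0.168. Per1 was called in 2, without withdrawal 2 or control 2, with adjusted p from 0.0191 to 0.149. Nr1d1 was called without control 2 (adjusted p = 0.00691) and Per3 without withdrawal 2 (adjusted p = 0.00677). The ratio differences lay between -0.79 and -0.57 for Per2 over Per1, -0.95 and -0.63 over Per3, -1.83 and -1.64 over Nr1d1, and -1.64 and -1.42 over Arntl. Only the first lost its call, in 1 of 10 settings, without control 2 (adjusted p = 0.0595).

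The replicate numbers pair no mice in the labels. Deviations of same-numbered libraries correlated at 0.029, 0.31, -0.13 and 0.28, so the replicate block is given here alone, and no other member's call changed under it.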

Other observations

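Genes whose profile over the 10 libraries lay nearest to that of Per2 were Mertk, a phagocytic receptor, Cebpa and Cebpb, transcription factors of the C/EBP family, Pitpnm2, a phosphatidylinositol transfer protein, and Ramp2, a receptor partner. The root mean square difference of their centred log2 CPM from Per2 was 0.142, 0.155, 0.191, 0.162 and 0.196. These genes were picked by that difference over the same libraries, so changes near that of Per2 follow from the choice. Mertk and Ramp2 fell in 10 libraries, by 1.22 and 1.31 on the log2 scale (edgeR's adjusted p = 0.0405 and 0.0259). Cebpa, Cebpb and Pitpnm2 had log2 changes of -1.18, -1.12 and -1.20 (edgeR's adjusted p = 0.180, 0.238 and 0.193), and all 5 fell in the 8 libraries.

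Nearest to Per1 were Slc7a5, an amino acid transporter, Azin1, which regulates polyamine synthesis, Foxo3, a forkhead transcription factor, B4galt4, a galactosyltransferase, and Paqr8, a membrane receptor for progestins. Their differences from Per1 were 0.105, 0.132, 0.138, 0.148 and 0.154. They were picked by that difference as well, so changes near that of Per1 follow from the choice. Azin1 fell by 0.40 on the log2 scale in 10 libraries (edgeR's adjusted p = 0.0448). The other 4 had log2 changes between -0.54 (Paqr8) and -0.39 (B4galt4) and passed in the 8 libraries only.

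Ciart, a repressor of the BMAL1 pair, had a log2 change of -0.38 in 10 libraries (SE 0.158, edgeR's adjusted p = 0.303). In 8 its log2 change was -0.25 (SE 0.160, edgeR's adjusted p = 0.315).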
